A study of Homo sapiens with 23 samples.

Results

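The 10 genes FN1, FBN1, SPARC, SPOCK1, THBS1, THBS2, TNC, POSTN, SPP1 and FAP encode matricellular and fibrillar glycoproteins of the extracellular matrix, and a protease of matrix-depositing cells. They were taken by symbol from a table of 35438 genes, and all 10 were present and passed the filter on low values (at least 1 TPM in at least 2 libraries). Poly(A) RNA was sequenced from WM989 A6-G3, a human melanoma cell line with wild-type genotype per its labels that had been passed through single-cell bottlenecks, and from resistant clones that were grown from isolated colonies of it under drug. Clones 7, 8 and 9 were vemurafenib-resistant and were kept in 1 µM vemurafenib, an inhibitor of mutant BRAF. Clones 10, 11, 12 and 13 were dabrafenib/trametinib-resistant and were kept in dabrafenib at 250 nM, which inhibits BRAF, together with trametinib at 2.5 nM, which inhibits the downstream kinase MEK. Drug was absent from the cultures of untreated cells, so a clone's history and the drug around it cannot be told apart. Each group had 3 libraries except clone 11, which had 2 (replicates 2 and 3). The replicates are labelled biological, but the labels do not say what separated them. P-values therefore measure the spread between these libraries, which may be technical. All clone comparisons used the same 3 untreated libraries.

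Fibronectin and fibrillin are assembled outside the cell into fibrils and microfibrils that give tissue its scaffold and hold latent growth factors. Matricellular proteins such as SPARC, the thrombospondins, tenascin-C, periostin and osteopontin are secreted into that scaffold but mainly modulate how cells attach to it, through integrins, syndecans, CD36, CD44 and CD47. In melanoma, several of these genes are known for high levels in dedifferentiated, mesenchymal-like cells and in tumour-associated fibroblasts.

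Levels are given as scaled TPM, the deposited TPM values (transcript abundance per length, set to a fixed total in each library) divided by a library factor from a trimmed mean (0.747 for clone 8 replicate 3, the lowest, to 1.15). Sequencing depth cannot be read from TPM and is unknown here. A gene passed in a contrast when limma's Benjamini-Hochberg adjusted p over all 15657 genes tested was under 0.05 and the fold change on log2(scaled TPM + 1) was at least 1 in size. That scale understates the change of a gene that is low in untreated cells. Clone 10 replicate 1 stood apart, with 14415 genes above 0, against 18671 to 24039 in the other libraries. The labels call all groups melanoma cells. The summed level of 6 melanocyte markers (MITF, SOX10, PMEL, MLANA, TYR and DCT) was 20.6 to 464 scaled TPM in clone libraries and 11950 to 12320 in untreated libraries. Of 9 fibroblast markers, 6 or 7 reached 1 scaled TPM in each clone and 3 did in untreated cells. Their sum was 2059 to 7639 in clone libraries and 59.5 to 68.9 in untreated libraries, with COL1A1 the most abundant in the clones. Of the same list, THY1 averaged at most 0.437 in any clone, and PI16 was listed at 0 in all libraries of clones 10, 11 and 12 and of untreated cells. Among markers of other cells, CD3E and CDH5 averaged at most 0.00772 and 0.0312 in any clone, MS4A1 was listed at 0 in every clone library, and keratinocyte marker sums were 10.1 to 18.7 in clones and 8.03 to 9.79 in untreated cells. The endothelial marker sum was 1.55 to 5.49 in clones and 1.57 to 1.75 in untreated cells. The immune list summed to 140.0 to 751 in clones and 159 to 164 in untreated cells, nearly all of it CD68. CD68 passed as higher than in untreated cells in clones 7, 10, 12 and 13 (log2 fold changes of 1.01 to 1.93). Other markers of these 3 lists also passed as higher in places. These were PTPRC and TP63 in clone 8 (1.17 and 1.98), PECAM1 in clone 13 (1.10) and KRT14 in clone 11 (1.48). VWF passed in clones 7, 12 and 13 (1.42, 1.24 and 1.24), and no tested marker of these lists passed as lower. The part of these marker differences in the results below was not tested. In bulk RNA, fewer cells that express a gene and less RNA per cell cannot be told apart.

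The promoters of the 4 members whose levels differed most between clones are shown, so that the letters before their starts can be read beside their levels. Each window is the 250 bases upstream of the RefSeq transcript start on the gene's strand, from RefSeq on GRCh38.p14, while the expression table was made on hg19. POSTN lies at chr13:37598769-37599018 (minus strand), SPP1 at chr4:87975464-87975713 (plus strand), TNC at chr9:115118158-115118407 (minus strand) and FN1 at chr2:215436069-215436318 (minus strand). Capitals mark matches, on either strand, to an AP-1 site (TGANTCA), a TEAD site (GGAATG), a cyclic AMP response element (TGACGTCA), a TATA box (TATAAA), an E-box (CACGTG) or a CCAAT box (CCAAT).
POSTN: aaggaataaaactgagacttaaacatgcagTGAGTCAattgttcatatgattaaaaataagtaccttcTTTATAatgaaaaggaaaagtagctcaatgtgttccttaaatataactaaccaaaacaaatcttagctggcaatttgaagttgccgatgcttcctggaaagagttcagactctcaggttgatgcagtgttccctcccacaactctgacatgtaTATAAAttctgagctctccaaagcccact
SPP1: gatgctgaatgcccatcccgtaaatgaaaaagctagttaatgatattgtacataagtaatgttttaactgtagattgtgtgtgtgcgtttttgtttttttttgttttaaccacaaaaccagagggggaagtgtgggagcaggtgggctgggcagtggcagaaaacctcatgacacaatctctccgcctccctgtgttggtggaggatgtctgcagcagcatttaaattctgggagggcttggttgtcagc
TNC: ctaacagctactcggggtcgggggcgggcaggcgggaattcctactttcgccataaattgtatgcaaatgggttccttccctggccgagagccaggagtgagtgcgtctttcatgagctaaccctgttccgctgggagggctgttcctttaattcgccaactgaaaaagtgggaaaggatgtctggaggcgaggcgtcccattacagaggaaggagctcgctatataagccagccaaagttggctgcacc
FN1: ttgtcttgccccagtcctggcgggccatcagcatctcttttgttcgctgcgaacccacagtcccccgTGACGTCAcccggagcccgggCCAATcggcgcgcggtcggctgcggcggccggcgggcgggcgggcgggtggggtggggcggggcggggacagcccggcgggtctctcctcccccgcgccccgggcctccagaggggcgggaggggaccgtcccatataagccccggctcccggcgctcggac

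The POSTN window held an AP-1 match 220 bases upstream of the start and TATA matches 182 and 29 bases upstream, and its GC content was 36.4%. The FN1 window held a cyclic AMP response element match 183 bases upstream and a CCAAT match 162 bases upstream, and its GC content was 76.4%. No match to the searched letters was found in the TNC window (54.8% GC) or the SPP1 window (44.8% GC). Only the letters given above were searched, so variants of these sites, such as the tatataag near the TNC start, were not counted. Of 35116 promoter windows of the same length, 6.57% held the AP-1 letters, 10.7% the TATA letters, 1.65% the cyclic AMP element and 32.0% the CCAAT letters. The TEAD letters were in 4 of the 8 members with a RefSeq window (FBN1, SPARC, THBS1 and THBS2) and in 11.9% of all windows. The E-box letters, found in 6.34% of all windows, were in none of the 8. SPOCK1 and FAP had no window in the table. These matches are descriptions of letters and not of binding.

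Most of the 10 genes were higher in resistant clones than in untreated cells. The genes FN1, FBN1, SPARC, SPOCK1, THBS1 and FAP (6 of 10) rose in all 7 clones, which 4.87% of all genes tested did. TNC rose in 5 clones and fell in 1, SPP1 rose in 5, POSTN in 2 and THBS2 in 1. FBN1, SPOCK1, THBS2, POSTN and FAP were under 1 TPM in every untreated library and passed the low-value filter through clone libraries alone. The rises of these genes are therefore not independent of that filter. By clone, 9 of 10 members rose in clone 7 (11.1% of all genes), 8 in clone 8 (11.0%), 9 in clone 9 (11.5%), 6 in clone 10 (11.8%), 8 in clone 11 (11.5%), 7 in clone 12 (11.5%) and 8 in clone 13 (12.3%). TNC alone of the 10 fell in clone 10, where 10.6% of all genes fell. On the unweighted mean of the 7 clones, 9 members passed, all higher, against 10.9% of all genes higher. Errors and p-values on this mean, here and below, come from the spread between libraries within groups and not between clones. They do not describe resistant clones beyond these 7. The median log2 fold change of the 10 on that mean was 3.42, and the median of all genes tested was -0.01. For the same 6 genes, the lowest of the 20 clone libraries lay above the highest untreated library, as for 14.5% of all genes.

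The members differed by orders of magnitude in level, on the length-adjusted TPM scale. In untreated cells SPARC averaged 576 ± 35.8 scaled TPM (SD, n = 3) and FN1 240.3 ± 15.3 (SD, n = 3), TNC averaged 16.4, SPP1 3.13 and THBS1 2.54, and the other 5 were below 1. Together the 10 genes took 1.45% ± 0.0812 of all deposited TPM in clone 7, 1.78% ± 0.483 in clone 8, 1.32% ± 0.0719 in clone 9, 0.381% ± 0.0569 in clone 10, 2.61% ± 0.240 in clone 11, 0.622% ± 0.0290 in clone 12 and 0.750% ± 0.0851 in clone 13, against 0.0758% ± 0.00622 in untreated cells (SD, n = 3, or 2 for clone 11). FN1 and SPARC made up most of that share in every library.

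**Figure D1:**
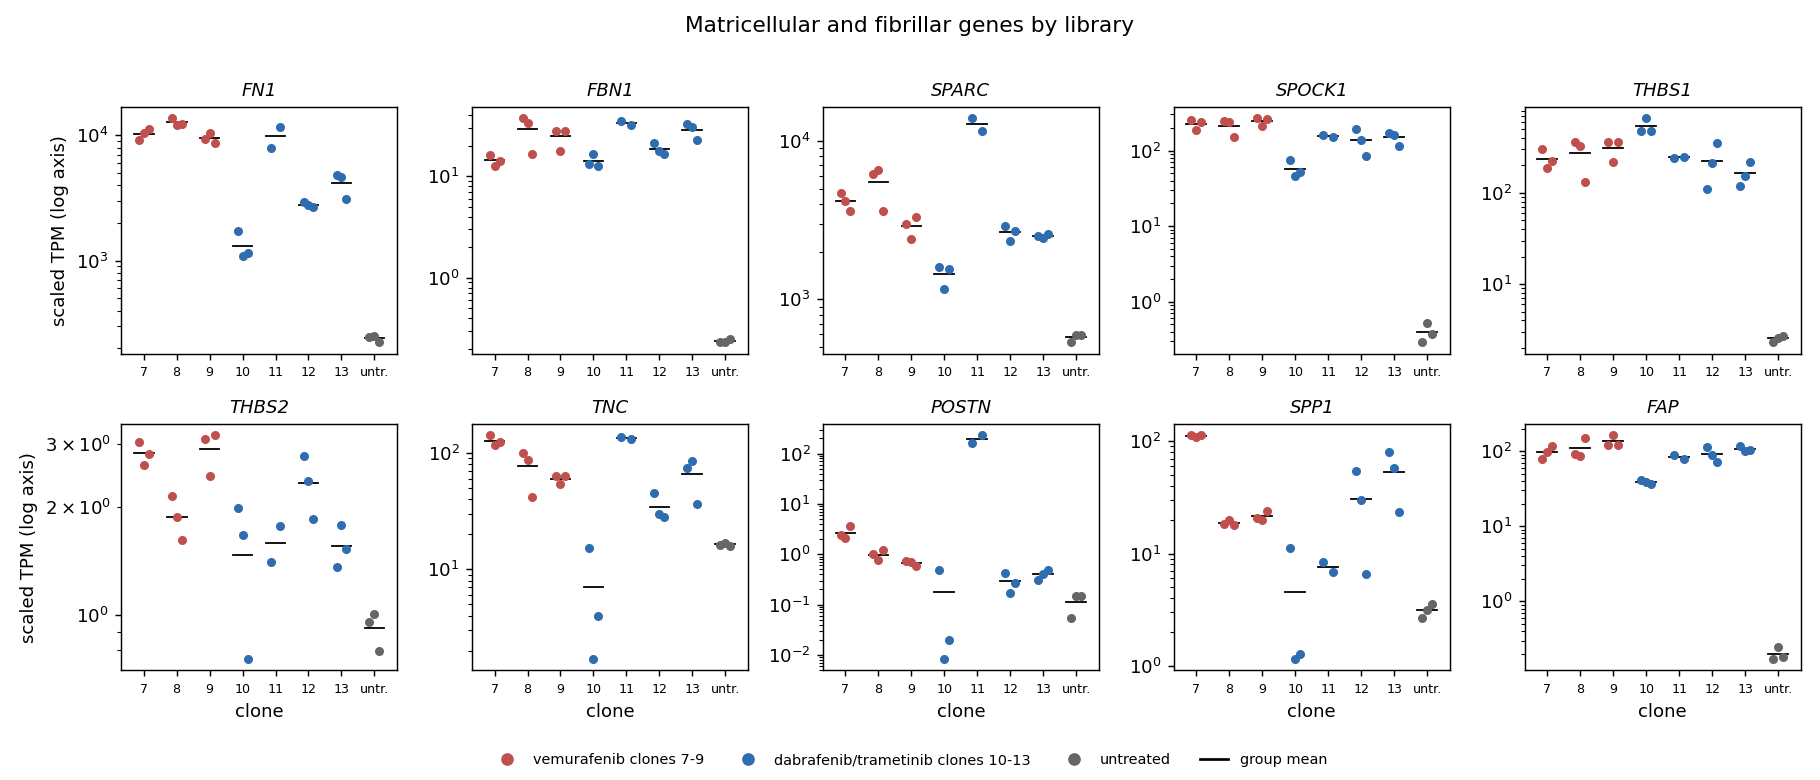
Scaled TPM of each of the 10 genes (log axis) in every library, by clone (7 to 13) and in untreated cells at the right of each panel; points are libraries, bars are group means, red is vemurafenib, blue is dabrafenib/trametinib and grey is untreated. FN1, FBN1, SPARC, SPOCK1, THBS1 and FAP were above untreated cells in every clone library, POSTN reached 163 and 234 only in clone 11, and TNC, POSTN and SPP1 spread widely within clone 10.

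FN1 encodes fibronectin, the glycoprotein that cells stretch into fibrils through integrin α5β1. In the vemurafenib clones it stood at 9199, 10515 and 11158 scaled TPM in clone 7, at 13715, 12079 and 12411 in clone 8, and at 9311, 10539 and 8726 in clone 9. In the dabrafenib/trametinib clones it stood at 1720, 1093 and 1149 in clone 10, at 8002 and 11774 in clone 11, at 2916, 2798 and 2707 in clone 12, and at 4817, 4618 and 3116 in clone 13. The untreated libraries held 247, 251 and 223. All 20 clone libraries lay above all 3 untreated libraries, and clone 10 was the lowest clone without touching any other. The log2 fold change was 5.72 ± 0.19 (SE) in clone 8, the highest, and 2.42 ± 0.19 in clone 10 (limma adjusted p = 1.18e-14 and 3.3e-09). In order of mean log2 level, none of the steps from clone 8 through clones 7 and 11 to clone 9 had an adjusted p under 0.05. A step of 1.21 separated clone 9 from clone 13 (limma adjusted p = 0.000341), and a step of 1.12 separated clone 12 from clone 10 (limma adjusted p = 0.00133).

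FBN1 encodes fibrillin-1, the backbone of the microfibrils of elastic tissue, and it went with FN1 in direction but at a level far lower. Its libraries ranged from 12.7 scaled TPM in clone 10 to 37.5 in clone 8, and the untreated libraries held 0.230, 0.233 and 0.248. Group means ran from 14.2 ± 2.11 in clone 10 and 14.4 ± 1.84 in clone 7 (SD, n = 3 each) to 33.6 ± 2.33 in clone 11 (SD, n = 2), against 0.237 ± 0.00974 in untreated cells (SD, n = 3). No clone library overlapped an untreated one, and no step between neighbouring clones had an adjusted p under 0.05. The log2 fold change on the mean of the clones was 4.21 ± 0.18 (limma adjusted p = 1.22e-13). With a pseudocount of 5 in place of 1 it was 2.37, still past the threshold.

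SPARC, a calcium- and collagen-binding matricellular protein, was abundant in every group and highest in clone 11. It stood at 4678, 4205 and 3592 scaled TPM in clone 7, at 6227, 6594 and 3618 in clone 8, and at 2997, 2400 and 3320 in clone 9. It stood at 1610, 1154 and 1560 in clone 10, at 13912 and 11540 in clone 11, at 2903, 2346 and 2690 in clone 12, and at 2509, 2431 and 2595 in clone 13. Untreated libraries held 534, 594 and 599. Both clone 11 libraries lay above all others, and every clone library lay above every untreated library. The log2 fold change was 4.46 ± 0.22 in clone 11 and 1.31 ± 0.20 in clone 10 (limma adjusted p = 4.73e-12 and 2.08e-05). Clone 11 exceeded clone 8, the next in order, by 1.26 (limma adjusted p = 0.000517), and clone 13 lay above clone 10 by 0.82 (limma adjusted p = 0.00967), which is under the fold minimum.

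SPOCK1 encodes a secreted proteoglycan of the SPARC family. On log2(scaled TPM + 1) it had the largest change of the 10 on the mean of the clones, 6.79 ± 0.19 (limma adjusted p = 3.58e-16). FAP averaged less in untreated cells, 0.198 scaled TPM against 0.396 for SPOCK1, so that scale understates its 6.22 more. Clone means were 227 ± 35.5 in clone 7, 212 ± 51.8 in clone 8, 246 ± 32.9 in clone 9, 57.5 ± 14.6 in clone 10, 156 ± 7.67 in clone 11, 139 ± 54.3 in clone 12 and 150 ± 30.0 in clone 13, in scaled TPM (SD, n = 3, or 2 for clone 11). Untreated libraries held 0.289, 0.529 and 0.371. The lowest clone library, at 46.5 in clone 10, was still far above the untreated ones. Clone 12 exceeded clone 10, the lowest, by 1.20 (limma adjusted p = 0.00572), and no other step between neighbouring clones had an adjusted p under 0.05.

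THBS1 encodes thrombospondin-1, a large adhesive glycoprotein bound by CD36 and CD47 that can release latent TGF-β. It stood at 301, 188 and 224 scaled TPM in clone 7, at 360, 325 and 131 in clone 8, and at 358, 219 and 359 in clone 9. It stood at 475, 659 and 472 in clone 10, at 242 and 249 in clone 11, at 111, 211 and 352 in clone 12, and at 119, 155 and 218 in clone 13. Untreated libraries held 2.29, 2.59 and 2.72. Every clone library lay far above the untreated ones, and clone 10, the lowest clone for the other 9 members, was the highest here. Its lead over clone 9 was 0.80 and did not pass (limma adjusted p = 0.132), but it exceeded clone 13 by 1.73 (limma adjusted p = 0.00393). On the mean of the clones the log2 fold change was 6.19 ± 0.28 (limma adjusted p = 5.37e-13). The share of the variance among clone libraries that lay between clones was 58.4%, close to the median of 59.8% over all genes tested.

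THBS2, the gene of the related thrombospondin-2, stayed low. Clone means ran from 1.47 ± 0.641 scaled TPM in clone 10 to 2.90 ± 0.406 in clone 9, against 0.921 ± 0.111 in untreated cells (SD, n = 3 each). The clone 10 libraries, at 1.99, 1.68 and 0.755, overlapped the untreated libraries at 0.956, 1.01 and 0.796, and the libraries of the other 6 clones lay above them. The change passed only in clone 9 (1.02 ± 0.17, limma adjusted p = 5.45e-05), and leaving out clone 9 replicate 1, clone 9 replicate 3 or untreated replicate 3 took it below the fold minimum (0.98, 0.97 and 0.97). It was 0.41 with a pseudocount of 5, which ended the call, and 1.55 with 0.1. Clone 7 missed the minimum at 0.99 (limma adjusted p = 7.34e-05) and reached it without clone 7 replicate 2, clone 8 replicate 3, untreated replicate 1 or untreated replicate 2 (1.03, 1.00, 1.01 and 1.03). On the mean of the clones the log2 fold change was 0.65 ± 0.13 (limma adjusted p = 0.000256), under the minimum of 1, and with a pseudocount of 0.1 it was 1.03, while clones 7 and 12 also passed, at 1.52 and 1.24.

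TNC encodes tenascin-C, a matricellular protein that weakens adhesion to fibronectin and is known from wounds and tumour stroma. It stood at 143, 117 and 125 scaled TPM in clone 7, at 101, 86.8 and 42.3 in clone 8, and at 63.7, 53.7 and 63.2 in clone 9. It stood at 15.4, 1.69 and 3.97 in clone 10, at 138 and 133 in clone 11, at 45.5, 29.8 and 28.0 in clone 12, and at 74.5, 85.7 and 36.7 in clone 13. Untreated libraries held 16.2, 17.0 and 16.0. The libraries of 6 clones lay above all untreated libraries, and the 3 libraries of clone 10 lay below them on the scaled values. As deposited, clone 10 replicate 1, the library with few detected genes, held 17.2 TPM of TNC and lay above the untreated libraries at 13.8, 15.6 and 14.9. The rise passed in clones 7, 8, 9, 11 and 13, with log2 fold changes of 1.81 to 2.97, and clone 12 had 1.00 ± 0.45 (limma adjusted p = 0.0798). The clone 12 value passed when only clone 12 and untreated libraries were fitted (1.02, limma adjusted p = 0.00191) and without clone 10 replicate 1 (1.00, limma adjusted p = 0.0124). In clone 10 TNC fell by 1.53 ± 0.45 (limma adjusted p = 0.00853). That fall was -0.95 without clone 10 replicate 2 (limma adjusted p = 0.0684), and -1.53 with an adjusted p of 0.0749 when only clone 10 and untreated libraries were fitted. Of all genes tested, 0.428% passed in both directions among the clones, as TNC did. Clone 9 exceeded clone 10 by 3.34 (limma adjusted p = 3.54e-05).

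POSTN encodes periostin, a collagen-binding protein of bone lining and reactive stroma that engages αv integrins. The libraries of clone 11 stood at 163 and 234 scaled TPM, and those of clone 7 at 2.45, 2.07 and 3.58. Clone 8 held 1.02, 0.753 and 1.20, clone 9 held 0.730, 0.691 and 0.580, and clone 10 held 0.495, 0.00819 and 0.0200. Clone 12 held 0.423, 0.173 and 0.272, clone 13 held 0.309, 0.402 and 0.484, and untreated cells held 0.0534, 0.146 and 0.145. Only clone 11 was high, and clone 10 was the only clone that overlapped the untreated libraries. The log2 fold change against untreated cells was 7.46 ± 0.20 in clone 11 (limma adjusted p = 4.9e-16) and 1.71 ± 0.18 in clone 7 (limma adjusted p = 1.56e-07). Clone 11 exceeded clone 7 by 5.75 (limma adjusted p = 5.87e-13), and clone 7 lay above clone 8 by 0.88 (limma adjusted p = 0.00215), which is under the fold minimum. The smaller changes moved with the pseudocount. With 0.1 in place of 1, clone 7 had 3.70, and clones 8, 9 and 13 also passed at 2.35, 1.86 and 1.23. With 5, clone 7 had 0.59 and did not pass. The mean of the clones, 1.59 ± 0.13 (limma adjusted p = 5.35e-09), was 2.82 with 0.1 and 0.91 with 5, and it averages clone 11 with 6 clones whose means were 0.174 to 2.70 scaled TPM.

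SPP1 encodes osteopontin, a secreted phosphoprotein that binds αvβ3 integrin and CD44. It stood at 114, 109 and 114 scaled TPM in clone 7, at 18.5, 19.8 and 17.9 in clone 8, and at 20.8, 19.7 and 23.7 in clone 9. It stood at 11.3, 1.14 and 1.27 in clone 10, at 8.37 and 6.89 in clone 11, at 54.6, 30.3 and 6.56 in clone 12, and at 80.1, 57.5 and 23.2 in clone 13. Untreated libraries held 2.68, 3.14 and 3.56. Clone 7 was high and even, clones 12 and 13 spread over several fold, and in clone 10 one library lay above the untreated ones and the other two below. The log2 fold change passed in clones 7 (4.78 ± 0.61, limma adjusted p = 2.53e-06), 8, 9, 12 and 13. It was 1.06 ± 0.68 in clone 11 (limma adjusted p = 0.23) and -0.07 ± 0.61 in clone 10 (limma adjusted p = 0.935). The clone 11 value passed when only clone 11 and untreated libraries were fitted (1.11, limma adjusted p = 0.000626).

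FAP encodes fibroblast activation protein, a cell-surface serine protease that trims matrix proteins and marks reactive fibroblasts. Clone libraries ran from 36.5 scaled TPM in clone 10 to 164 in clone 9, with means of 39.0 ± 2.43 in clone 10 and 136 ± 24.2 in clone 9 (SD, n = 3 each). Untreated libraries held 0.169, 0.245 and 0.180. None of the clone libraries came near an untreated one. The log2 fold change on the mean of the clones was 6.22 ± 0.15 (limma adjusted p = 3.07e-17). Clone 11 exceeded clone 10, the lowest, by 1.08 (limma adjusted p = 0.00128), and no other step between neighbouring clones had an adjusted p under 0.05.

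**Figure D2:**
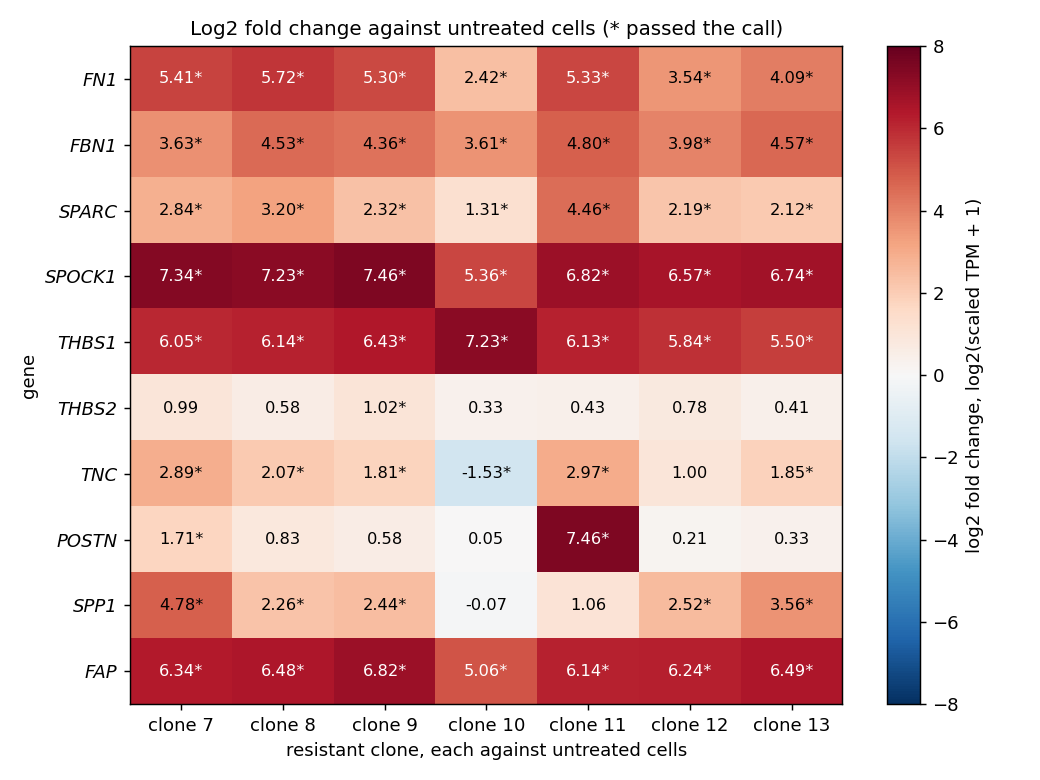
Log2 fold change of each gene (rows) in each resistant clone (columns) against untreated cells, on log2(scaled TPM + 1); red is higher and blue is lower in the clone, and a star marks values that passed. SPOCK1, THBS1 and FAP changed by 5.06 to 7.46 in every clone, while POSTN passed only in clones 7 (1.71) and 11 (7.46) and TNC was lower only in clone 10 (-1.53).

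The 7 clones were not alike in these genes. A test of equality of the 7 clones (limma F test, 6 degrees of freedom, adjusted p under 0.05 and a range of at least 1 between clone means on the log2 scale) passed for 9 of the 10 members, against 25.3% of all genes tested. The range was 7.41 for POSTN (adjusted p = 7.31e-14), 4.86 for SPP1 (7.64e-05), 4.50 for TNC (2.98e-06), 3.30 for FN1 (5.27e-10) and 3.15 for SPARC (5.25e-08). It was 2.10 for SPOCK1 (2.13e-05), 1.76 for FAP (2.04e-05), 1.73 for THBS1 (0.0183) and 1.20 for FBN1 (0.00116). THBS2 had a range of 0.69 and did not pass. Without clone 10 replicate 2, THBS1 lost its call (range 1.57, limma adjusted p = 0.0765). The share of variance among clone libraries that lay between clones was 99.3% for POSTN, 97.2% for FN1 and 94.3% for SPARC. Libraries of 1 clone still spread in places, as for POSTN in clone 10 (CV 159%), SPARC in clone 8 (CV 29.6%) and FN1 in clone 11 (CV 27.0%).

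Clone 10 had the lowest mean of the 7 clones for 8 of the 9 members that passed the F test, all but THBS1, and for THBS2. For FBN1, POSTN, SPP1 and THBS2 it was not separated from the next clone (limma adjusted p = 0.955, 0.623, 0.272 and 0.784). Among the 3963 genes that passed that test, clone 10 was lowest for 27.2%. The count was 7 of 9 without clone 10 replicate 1, clone 10 replicate 3 or clone 7 replicate 1, and also without clone 8 replicate 3 and clone 10 replicate 1 together. Clone 11 was highest for 4 of the 9 (FBN1, SPARC, TNC and POSTN), against 19.5% of genes that passed. Over the 21 pairs of clones, 71 of 210 combinations of member and pair passed, against 6.16% over all genes. FN1 passed in 14 pairs, SPARC in 11, POSTN and SPP1 in 10 each, TNC in 8, SPOCK1 and FAP in 6 each, THBS1 in 4, FBN1 in 2 and THBS2 in none. Clones 7 and 10 differed in 8 members (10.9% of all genes in that pair), of which THBS1 was the one lower in clone 7. Between clones 8 and 9 no member passed (5.06% of all genes did), though SPARC was 0.88 higher in clone 8 (limma adjusted p = 0.00395), under the fold minimum. Between clones 12 and 13 no member passed either (1.52% of all genes did).

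The drugs were compared over clones, since a clone and not a library received a drug, with 3 vemurafenib clone means set against 4 dabrafenib/trametinib clone means in limma. No member passed, and 0.0192% of all genes tested did (3 genes). The smallest unadjusted limma p-values among the members were 0.0205 for SPOCK1 and 0.0267 for FN1. The share of all genes with such values was not counted. FN1 was higher in vemurafenib clones by 1.63 ± 0.60 (limma adjusted p = 0.294), and SPOCK1 by 0.97 ± 0.34 (limma adjusted p = 0.28). For FN1, the 3 vemurafenib clones were at 9526 to 12735 scaled TPM, and the dabrafenib/trametinib clones at 1321 to 9888, with clone 11 above clone 9. POSTN had -0.97 ± 1.73 (limma adjusted p = 0.823), with its only high clone in the dabrafenib/trametinib arm. With so few clones, a miss does not show that the arms were alike.

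Receptors and partners were described by lists. Of 19 receptors of these proteins, 16 were tested, and on the mean of the clones 10 were higher and 1 lower (10.9% of all genes tested were higher), with a median of 1.51 on the log2 scale against -0.01 over all genes. In all 7 clones, 7 receptors rose. The largest changes among these 7 were ITGA5, the fibronectin receptor subunit α5, at 4.82 ± 0.11 (limma adjusted p = 1.21e-17), and SDC1, the heparan sulfate proteoglycan syndecan-1, at 4.80 ± 0.13 (limma adjusted p = 2.38e-16). The integrin subunits ITGB5 and ITGB3, which pair with αv, had 2.45 and 2.32. ITGA5 averaged 1980 ± 192 scaled TPM in clone 11 (SD, n = 2), against 85.5 to 612 in the other clones and 7.77 ± 1.20 in untreated cells (SD, n = 3). Clone 11 was also the highest clone for SPARC and POSTN. The next 3 receptors were outside the naming rule and were picked after their values were seen. PTPRZ1, a receptor phosphatase that binds tenascins, fell in all 7 clones (-1.55 ± 0.23 on their mean, limma adjusted p = 1.25e-05). ITGA4, an integrin subunit that binds fibronectin, osteopontin and thrombospondins, fell in clones 7 and 8 (-1.39 and -1.12) and rose in clones 10, 11 and 12 (2.22, 1.22 and 1.03). CD36, a thrombospondin receptor, averaged 215 ± 8.61 in clone 7 and 6.09 to 35.7 in the other clones, against 0.428 ± 0.144 in untreated cells (SD, n = 3 each). Its rise passed in every clone but clone 10 (log2 fold change 1.39 ± 0.65, limma adjusted p = 0.083). CD36 was under 1 TPM in untreated cells and passed the low-value filter through clone libraries alone. The rise of CD36, and the receptor counts that include it, are therefore not independent of that filter.

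Of 15 partners of microfibrils and elastic fibres, 14 were tested, and 8 were higher and none lower on the mean of the clones, where 10.9% of all genes were higher. Their median was 1.18, against -0.01 over all genes. Those that rose in all 7 clones were MFAP4, a microfibril-associated glycoprotein (6.15 ± 0.11, limma adjusted p = 6.77e-19), LTBP1, which tethers latent TGF-β to fibrillin and fibronectin (5.38 ± 0.16, limma adjusted p = 5.06e-16), and LTBP2 (2.68 ± 0.17, limma adjusted p = 8.09e-11). MFAP4 averaged 12.5 ± 1.30 scaled TPM in clone 7 and 7.43 ± 1.31 in clone 8, and 154 to 391 in the other clones, against 0.361 ± 0.0837 in untreated cells (SD, n = 3 each for the groups with an SD). Clone 8, with the highest FN1 mean, had the lowest MFAP4 mean of the clones. Of 24 relatives of the members, 10 were tested, and 5 were higher and none lower on the mean of the clones, against the same 10.9% of all genes. Their median was 0.78, against -0.01 over all genes. Those that rose in all 7 clones were TGFBI, a relative of periostin (2.91 ± 0.33, limma adjusted p = 3.23e-07), and THBS3 (1.68 ± 0.17, limma adjusted p = 7.38e-08). TGFBI reached 4.10 to 14.4 scaled TPM as clone means, against 0.0352 ± 0.0159 in untreated cells (SD, n = 3). Both TGFBI and MFAP4 were under 1 TPM in untreated cells and passed the low-value filter through clone libraries alone. Their rises, and the counts of partners and relatives that include them, are therefore not independent of that filter.

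**Figure D3:**
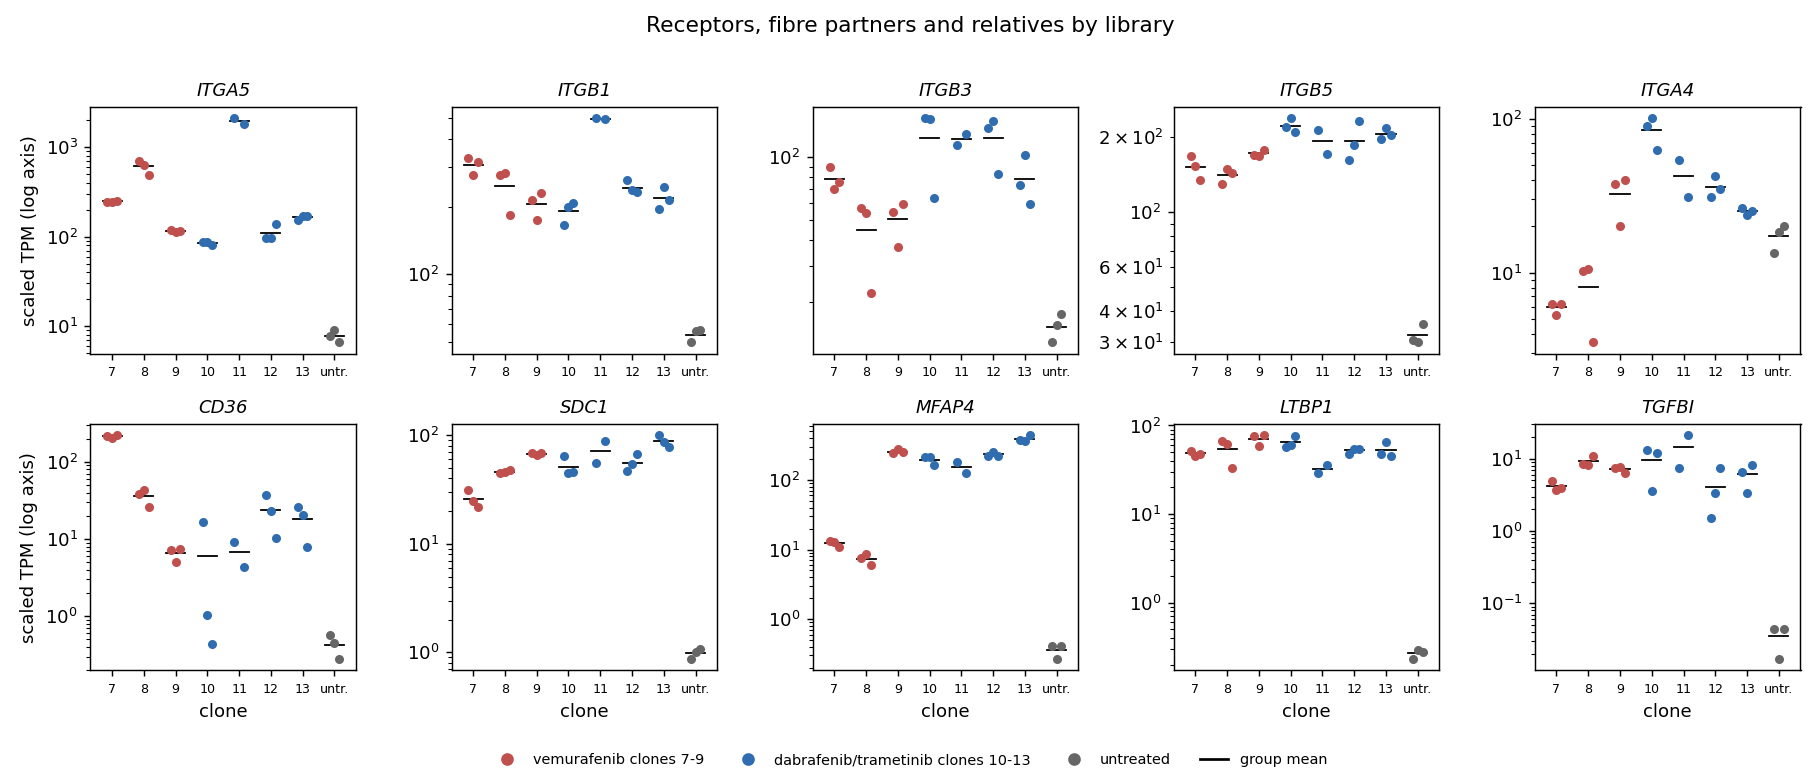
Scaled TPM (log axis) of receptors (ITGA5, ITGB1, ITGB3, ITGB5, ITGA4, CD36, SDC1), microfibril partners (MFAP4, LTBP1) and a periostin relative (TGFBI) in every library, by clone (7 to 13) with untreated cells at the right; bars are group means and colours mark the drug. ITGA5 was highest in clone 11 (mean 1980), MFAP4 was low in clones 7 and 8 (12.5 and 7.43), and ITGA4 lay below untreated cells in clones 7 and 8.

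Within some clones, SPP1, TNC and THBS1 varied between libraries that also differed in melanocyte markers. In clone 12 the melanocyte marker sum was 464, 313 and 56.5 scaled TPM in replicates 1, 2 and 3, SPP1 was 54.6, 30.3 and 6.56, and THBS1 was 111, 211 and 352. In clone 13 the marker sum was 240.2, 106 and 77.6, SPP1 was 80.1, 57.5 and 23.2, and THBS1 was 119, 155 and 218. In clone 10 the marker sum was 378, 114 and 70.7, SPP1 was 11.3, 1.14 and 1.27, TNC was 15.4, 1.69 and 3.97, and THBS1 was 475, 659 and 472. In clones 12 and 13 the library with more melanocyte marker RNA had more SPP1 and less THBS1, which did not hold in every clone. In clone 10 THBS1 was about level between the libraries with the highest and lowest marker sums. In clone 8 the library with the lowest marker sum (56.0) had the lowest THBS1, 131 against 360 and 325. In clone 11 the library with the lower sum, 20.6 against 34.9, had more SPP1, 8.37 against 6.89. Clone 7 was even in both, with marker sums of 367 to 393 and SPP1 of 109 to 114. The highest clone 10 values of SPP1, TNC and POSTN came from replicate 1, the library with few detected genes. Without it, the clone 10 log2 fold change against untreated cells was -0.89 for SPP1, -2.24 for TNC and -0.13 for POSTN. The part of melanocyte marker levels in these differences was not tested.

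**Figure D4:**
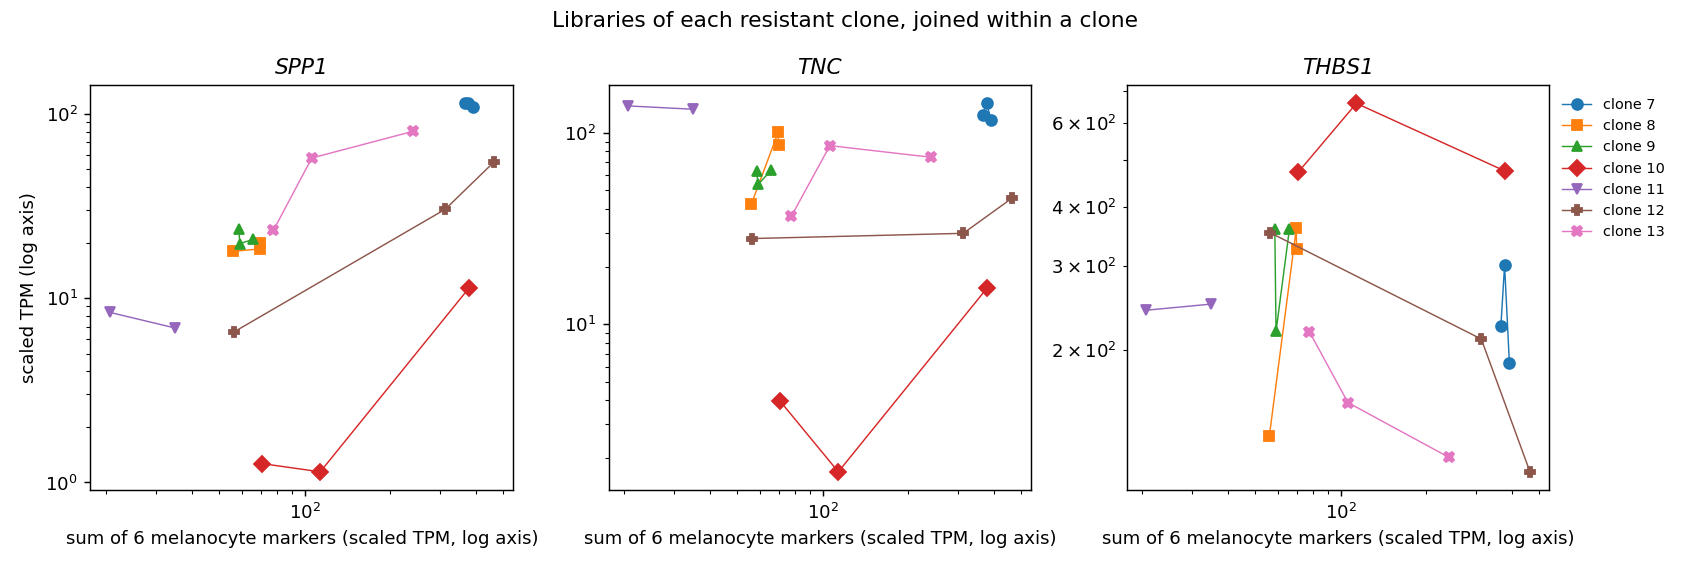
Scaled TPM of SPP1, TNC and THBS1 (log axes) against the summed level of 6 melanocyte markers in each clone library (log axis); lines join libraries of 1 clone. In clone 12, SPP1 was 54.6, 30.3 and 6.56 where the marker sum was 464, 313 and 56.5, and THBS1 was 111, 211 and 352 in the same libraries.

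The genes most like each member across the 20 clone libraries were found among tested genes whose mean on the log2 scale reached 2 (11217 candidates, 11218 for POSTN). These Pearson correlations are descriptions, since the 20 libraries come from 7 clones and share a clone's level. FN1 was most like CDH2, the gene of N-cadherin (r = 0.983), then TENM2 (0.970) and EMB (0.965). SPARC was most like TAGLN (0.950), CNN1 (0.948) and JPH2 (0.943). TNC was most like CORO2B (0.954), KCNK2 (0.941) and PRRX1 (0.937), and SPOCK1 like SEMA3C (0.930), RAB27B (0.923) and KCNK2 (0.919). POSTN was most like SMTN (0.943), CSRP1 (0.933) and PCSK7 (0.932), and SPP1 like ST3GAL6 (0.923), NBL1 (0.923) and VGF (0.908). The POSTN values rest mostly on the 2 libraries of clone 11, the only clone where POSTN was high. FAP was most like FAM134B (0.898), TCEA2 (0.877) and WBP1L (0.873). The values were lower for THBS1, with SMAD3 (0.836), PHACTR2 (0.816) and RAPGEF1 (0.809), and for FBN1, with LLGL1 (0.827), AMMECR1L (0.806) and C15orf52 (0.804). Among the members themselves, TNC with SPOCK1 had the highest value (0.871), and THBS1 had negative values with all 9 others, from -0.712 with FAP to -0.0785 with THBS2.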

How the data were processed

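Poly(A) RNA-seq values of 23 libraries in 8 groups were read from the deposited table, which gives 1 value per gene and library. The values were read as TPM because each deposited column summed to 1000000, although the table is named as counts. Per the submitters' processing notes, kallisto was used with the hg19 build. The name of the deposited table includes TxImport, a tool that summarises transcripts to genes. No version or annotation is given in the sources used here. Since the unit is TPM, no count model was used and the depth of each library is unknown.

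Library factors came from a trimmed mean of log ratios to 1 library, and values were divided by them (30% of log ratios and 5% of levels trimmed, 10822 genes). Genes with at least 1 TPM in at least 2 libraries (15657 of 35438) were tested with limma 3.58.1 in R 4.3.3 on log2(scaled TPM + 1), with a trend in eBayes and all 8 groups in 1 fit. Contrasts were each clone against untreated, the mean of the 7 clones against untreated, 21 pairs of clones, an F test among clones, and the drugs over 7 clone means. Calls needed a Benjamini-Hochberg adjusted p under 0.05 and a log2 fold change of at least 1. The script was tested on simulated data.

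The 10 members and all gene lists were chosen with earlier results of these data known. Named genes were all members, at most 4 genes per list with the largest change out of those that passed in the same direction in every clone, and the 3 genes most correlated with each member that passed the F test. Alternatives were other scalings, pseudocounts, filters, fold minimum and fits, and leaving out each library. Leaving out clone 8 replicate 3 (lowest scaling factor) and clone 10 replicate 1 together was chosen after seeing the data. Over all genes tested, no general pairing of the libraries by replicate number was seen.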

Additional observations from a re-analysis of the deposited data

Results flagged for a closer look

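Among the 7 clone means of each of the 10 genes, a clone stood far from the rest for 3 genes, by the gap to its nearest neighbour over the whole range on the log2 scale. The ratio was 0.776 for POSTN, where clone 11 was high, 0.613 for FAP, where clone 10 was low, and 0.573 for SPOCK1, where clone 10 was low, each above Dixon's 95% critical value for 7 values. Chance alone gives such a ratio in about 1 of 20 groups of normally distributed values. The share of all genes tested with such a gap was not counted.

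The change against untreated cells differed between clones for 9 genes by the limma F test, with the range over clones on the log2 scale as its size. The range was 7.41 for POSTN, 4.86 for SPP1, 4.50 for TNC, 3.30 for FN1, 3.15 for SPARC, 2.10 for SPOCK1, 1.76 for FAP, 1.73 for THBS1 and 1.20 for FBN1. Over the fits that left out libraries, these ranges stayed between 7.14 and 7.66 for POSTN, 4.42 and 5.69 for SPP1, and 3.92 and 5.22 for TNC.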

How the results depend on the processing

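The 10 members' fold changes against untreated cells, in 7 clones and on their mean, gave 80 values, each under up to 34 alternatives. Of 2697 outcomes, 2656 kept direction and side of the threshold, 17 lost a call, 16 gained one and 8 changed sign, none of the last from a value that had passed. Most alternatives left out 1 library, often one of neither compared group, where a value could hardly move. The number of kept outcomes is therefore not a measure of robustness by itself. SPP1 in clone 10 (-0.07) was 0.15 without scaling, 0.076 with a pseudocount of 5, and -0.89 to 0.36 over fits leaving out 1 library. POSTN in clone 10 (0.05) was -0.086 with a pseudocount of 0.1, -0.14 without clone 8 replicate 3 and clone 10 replicate 1 together, and -0.13 to 0.15 leaving out 1 library. A log2 fold minimum of 2 left 32 of the 71 calls between clones and 12 of the 24 calls in the lists, since it is stricter. With a pseudocount of 5, the clone 10 values of SPOCK1 and FAP were 3.51 and 3.08, and TNC there fell just short of the fold minimum (limma adjusted p = 0.0214). Without scaling, the median of all genes on the mean of the clones was 0.135 rather than -0.01, with 2006 genes higher and 973 lower (67.3% higher), against 1699 and 1240 (57.8%) after scaling. Leaving out 1 library gave 68 to 76 calls between clones and 8 or 9 members in the F test.

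Over all genes tested, replicate numbers showed no general pairing of the samples. Of 77 same-numbered pairs, 28 had a correlation of deviations over 0.1 (lowest -0.622, median 0.0138). The median for other-numbered pairs was -0.00928, and 9 of 23 libraries were closest to their own number. The melanocyte marker sum fell at each step of replicate number in clones 9, 10, 12 and 13, but not in clones 7, 8 and 11. Whether replicate numbers marked something shared by some clones was not tested. With the replicate number as a block, the number of members that passed against untreated cells was unchanged in each clone, 74 member calls between clones passed in place of 71, and 1704 genes were higher and 1241 lower on the mean of the clones.

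Resistance and drug presence were not separable, each clone is 1 colony, clone 11 has 2 libraries, and levels under 1 TPM, as for POSTN in most groups, carry little precision.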

Other observations

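Fibroblast markers that were not members also differed between clones. COL3A1, a fibrillar collagen gene, averaged 348 ± 5.67 scaled TPM in clone 9, 102 ± 5.21 in clone 7 and 10.3 ± 1.40 in clone 8, against 0.204 ± 0.123 in untreated cells (SD, n = 3 each), and its range over the 7 clones was 4.99 on the log2 scale (limma F test, adjusted p = 3.02e-09). PDGFRA, a growth factor receptor of mesenchymal cells, averaged 83.6 ± 8.46 in clone 9 and 72.2 ± 16.7 in clone 10, 7.56 ± 0.986 in clone 7 and 5.59 ± 0.597 in clone 8, against 0.962 ± 0.219 in untreated cells (SD, n = 3 each; range 4.16, limma F test, adjusted p = 1.81e-11). DPT, the gene of the matrix protein dermatopontin, averaged 6.05 ± 1.28 in clone 13 and at most 2.59 in any other clone, against 0.00295 ± 0.00511 in untreated cells (SD, n = 3 each; range 2.80, limma F test, adjusted p = 1.12e-10). These 3 genes were picked after their values were seen. COL3A1 and DPT were under 1 TPM in untreated cells and passed the low-value filter through clone libraries alone.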
